A study of Drosophila melanogaster with 2 samples.

Results

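The regions described here are the microRNA hairpin loci of the Drosophila melanogaster genome, and the measurement is where the transcription factor vvl was found around them. A microRNA hairpin is the folded stretch of a primary transcript from which a mature microRNA is cut. All 260 annotated hairpin genes of the 6 arms (X, 2L, 2R, 3L, 3R and 4) were taken, 2000 bp were added on each side, and hairpins under 2000 bp apart were joined. This gave 206 regions, of which 26 hold 2 or more hairpins, with a median length of 4097 bp and a range of 4050 to 6113 bp. The rule that picks the hairpins and draws the regions reads the gene annotation and no measured value.

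Chromatin immunoprecipitation followed by sequencing (ChIP-seq) was done on whole embryos 0 to 24 h old that carry a transgene for vvl joined to eGFP, with an antibody against GFP, so the tagged transgene product and not the untagged protein was pulled down. There was 1 group of 2 samples, biological replicates 1 and 2, with no other genotype, treatment or time, and sonication aimed at 200 to 800 bp. A control experiment that the labels list as possible was left out of use. What was deposited are lists of peaks, the stretches where reads piled up. The main list is the conservative one of the series, with 8309 peaks kept at an irreproducible discovery rate (IDR, which is low where a peak holds its place in repeated rankings) of 0.01 or less, that is a −log10 IDR of 2 or more. Each peak has a summit, its highest point, and a peak signal, which is the authors' own value and is used only to describe and rank peaks within a list. Read depth is unknown, since peak lists hold no read counts.

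vvl (ventral veins lacking) encodes a POU-domain factor that acts in tracheal cells, in glia and neurons and in the wing veins, and the POU class is known to bind the octamer ATGCAAAT. microRNA genes are transcribed, mostly by RNA polymerase II, as long primary transcripts, either from a promoter of their own or within the intron or exon of a host gene. The Drosha complex cuts the hairpin out in the nucleus, Dicer-1 cuts off its loop, and one strand guides Argonaute to messenger RNAs that pair with the seed, bases 2 to 8 of the mature microRNA. In the embryo, microRNAs are known to restrain cell death genes, proneural genes and Hox genes and to clear maternal messages. A summit's distance from a hairpin says where the peak lies and not on which gene the factor acts, and in whole embryos the cells in which it was bound are not known.

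The sequences below belong to loci with a summit away from protein-coding starts, chosen among those of higher peak signal. mir-2c and mir-13b-1, from a locus of low signal, are added to show the seed that they share with mir-2a and mir-2b, and not every locus of high signal is shown. Each is a mature microRNA read 5′ to 3′ from the Release 6 genome sequence (RefSeq) at the Ensembl 115 coordinates, with the seed in capitals. For loci in which the guide strand is well known that strand is shown, and for the others the 5p strand. The strands of mir-279 and mir-996 share 1 seed, and all mir-2 and mir-13 strands share another.
mir-279: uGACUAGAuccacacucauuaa
mir-996: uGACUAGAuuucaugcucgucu
mir-375: uUUGUUCGuuuggcuuaaguua
mir-282: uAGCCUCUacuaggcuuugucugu
mir-277: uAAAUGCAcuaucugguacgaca
mir-34: uGGCAGUGugguuagcugguugug
mir-ban: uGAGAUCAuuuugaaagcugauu
mir-2a-1: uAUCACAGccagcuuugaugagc
mir-2b-2: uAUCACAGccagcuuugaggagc
mir-2c: uAUCACAGccagcuuugaugggc
mir-13b-1: uAUCACAGccauuuugacgagu
mir-9377: cGCUCUUUcucucuaucuggcc
mir-4968: uAGCUGCCacgguuuguugcuu
mir-4959: cUGGCCAUgauuugcagcaggu
mir-9378: aGUGGAGUgagaccucgaguucgg
mir-4962: uUUCCCUCucucuguuuacauuga
mir-2496: gUGCGUGUgugagaggccaucgua

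The DNA under 4 of these summits follows, as the 100 bases centred on each summit on the plus strand of Release 6 (dm6). They show the peak of highest signal (mir-279/mir-996), the peak that lies between the 2 hairpins of a cluster (mir-277/mir-34), the higher peak upstream of bantam and the peak whose summit falls inside a hairpin (mir-4962). Capitals mark GAGAGAG on either strand, and none of the 4 windows holds the octamer.
mir-279/mir-996, chr3R:29214388-29214487: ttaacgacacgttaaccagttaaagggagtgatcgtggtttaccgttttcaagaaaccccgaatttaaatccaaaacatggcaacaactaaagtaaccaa
mir-277/mir-34, chr3R:10100677-10100776: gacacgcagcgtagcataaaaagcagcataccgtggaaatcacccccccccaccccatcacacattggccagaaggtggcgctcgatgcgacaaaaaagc
mir-ban, chr3L:640718-640817: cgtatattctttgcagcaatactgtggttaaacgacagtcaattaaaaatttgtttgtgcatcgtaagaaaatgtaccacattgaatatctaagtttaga
mir-4962, chrX:3777368-3777467: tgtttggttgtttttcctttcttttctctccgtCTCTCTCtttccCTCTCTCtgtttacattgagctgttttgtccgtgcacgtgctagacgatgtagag

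Of the 206 microRNA regions, 50 (24.3%) held at least 1 conservative summit, with 69 summits in all. Those 69 are 0.830% of the 8309. As background, the arms were divided into consecutive tiles of 4097 bp, and 18.9% of the 32676 tiles held a summit. That difference has to be read by the starts of protein-coding genes, where summits are dense and near which many hairpins lie. Of the 106 regions with a protein-coding transcription start inside or within 500 bp of their ends, 35 (33.0%) held a summit, against 32.3% of such tiles. Of the 100 regions without one, 15 (15.0%; 95% Wilson interval 9.31 to 23.3%) held a summit, against 10.6% of such tiles. Regions with a start therefore stood at the background, and for regions without one the background lay inside the interval. The intervals cover counting error only, and the regions are not replicates of a condition.

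Counted over summits, 42 of the 69 lay over 500 bp from every protein-coding start and are called away from starts in what follows, and 27 lay at a start. The 42 summits fell in 31 regions, 15.0% of the 206 (interval 10.8 to 20.6%), against 11.2% of tiles with such a summit. Per length of sequence away from starts, the microRNA regions held 57.4 summits per Mb, against 40.1 per Mb over the 6 arms. The sequence around the regions was also dense. In bins of distance beyond them, out to 10 kb from the hairpins, the density ran from 34.5 to 88.4 per Mb. Only the lowest of these bins lay below the arms. The density of the regions is therefore not read as particular to them. The share of tiles lay inside the interval of the regions, and the densities are given without an interval.

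**Figure D1:**
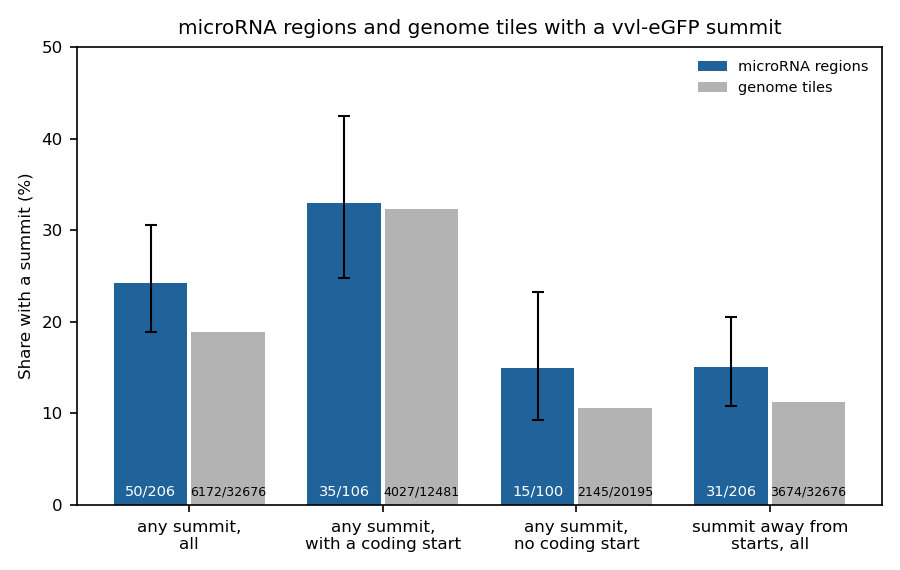
Share (%) of microRNA regions (blue, with 95% Wilson intervals over regions) and of genome tiles of 4097 bp (grey) that hold a conservative vvl-eGFP summit, in all, with a protein-coding start, without one, and for summits over 500 bp from such starts. The pair with a protein-coding start is nearly level, at 33.0% of regions and 32.3% of tiles, and in the pair without one the regions stand at 15.0% and the tiles at 10.6%.

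Summits away from starts were unevenly placed around the hairpins. On the strand of the nearest hairpin, 29 of the 42 lay upstream, 1 inside and 12 downstream. In the 202 regions whose hairpins are all on 1 strand, the 2 kb upstream of the hairpins held 28 such summits in 24 regions, 84.8 per Mb of sequence away from starts. The 2 kb downstream held 12 in 11 regions, 33.8 per Mb, below the 40.1 per Mb of the arms. The upstream side was the denser one in every list looked at. The broader list of the series had 35 upstream and 25 downstream, replicate 1 alone 24 and 18, and replicate 2 alone 21 and 13. In each of these lists the downstream side stood above its own arms, at 70.5 against 59.9, 50.8 against 45.8 and 36.7 against 32.6 per Mb. The same held at signals at or over the median, with 22.6 against 19.1 per Mb. No low density downstream is therefore read from the conservative list. In that list, regions without a protein-coding start had 15 upstream and 6 downstream, and regions with one had 13 and 6. In bins of 2 kb out to 10 kb, however, the density ranged from 33.8 to 88.4 per Mb, and the bin 4 to 6 kb upstream, with 29 summits, was as dense as the nearest one. The excess upstream is thus a count of 28 within a profile that is rough from bin to bin.

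**Figure D2:**
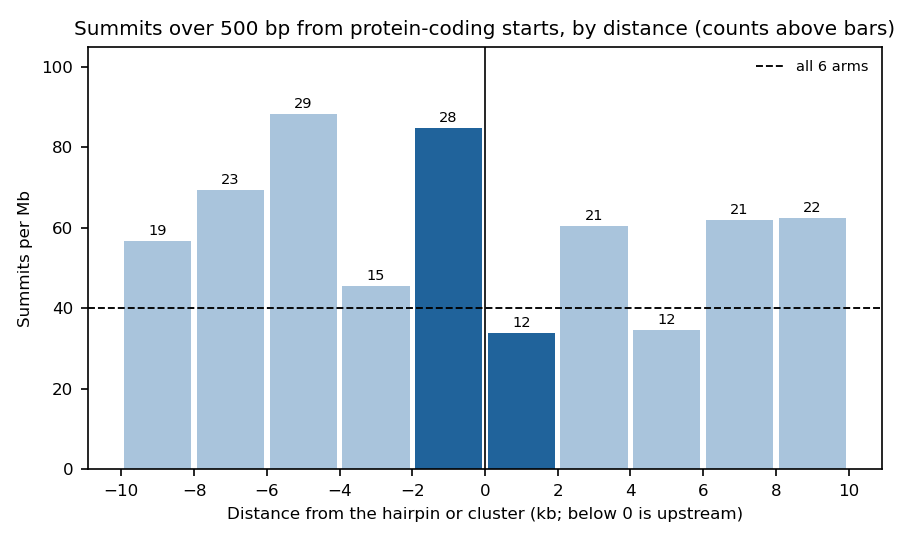
Density of summits over 500 bp from protein-coding starts (summits per Mb of sequence away from starts, y axis) by distance from the hairpin or cluster (kb, x axis, upstream below 0), with the number of summits above each bar and the density of all 6 arms as a dashed line. The 2 kb next to the hairpins, in dark blue, stand at 84.8 per Mb upstream and 33.8 per Mb downstream, and bins farther out range from 34.5 to 88.4 per Mb.

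The peak of highest signal in any microRNA region belonged to the mir-279/mir-996 cluster on 3R. Both microRNAs carry the seed shown above, and mir-279 is known for blocking the formation of carbon dioxide-sensing neurons in the maxillary palp. The peak (chr3R:29214261-29214614) had a signal of 1833 in the conservative list, rank 22 of 8309, with 979 in replicate 1 and 842 in replicate 2, in whose ranked lists it stood at ranks 26 and 28. Its summit lay 1147 bp upstream of mir-279, 124 bp from the annotated start of lncRNA:CR31044, the noncoding transcript that holds both hairpins, and 5734 bp from the nearest protein-coding start. It is the only conservative summit in that region. None of the 7 DNA words looked for, the octamer among them, was within 100 bp of it.

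In 3 more loci an upstream summit also lay close to an annotated start of a noncoding host transcript. Upstream of mir-14, which is known to hold back cell death and to act in fat metabolism, a peak with a signal of 217 (180 in replicate 1 and 74.7 in replicate 2) had its summit 93 bp from the start of lncRNA:CR43651 and 1011 bp from the hairpin. Upstream of mir-8, the fly member of the miR-200 family and a growth regulator of the fat body, a peak had a signal of 178 (111 and 75.7 in replicates 1 and 2). It lay 853 bp from the hairpin and 110 bp from an annotated start of lncRNA:CR43650. Upstream of mir-282, a peak with a signal of 196 (64.9 and 120 in replicates 1 and 2) lay 702 bp from the hairpin. It was 274 bp from an annotated start of lncRNA:CR43626. At mir-8 and mir-282 that start is not the outermost one of the host, and the summit lay in an exon of it. mir-14 and mir-8 each had 1 further summit, with signals of 110.5 and 41.8. All 3 main peaks were in the list of both replicates, with higher signal in replicate 1 for mir-14 and mir-8 and in replicate 2 for mir-282.

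Noncoding host transcripts were then counted as a class, wherever their start lay. A summit within 500 bp of a start was present for 8 of 33 noncoding hosts (24.2%), against 11.9% of all 2520 noncoding RNA genes. Of the 32 hosts whose starts are all over 500 bp from protein-coding starts, 8 (25%) had one, against 9.67% of such genes. Of the 33 hosts 12 have more than 1 annotated start, against 129 of the 2520 genes. Among genes with 1 start, again those far from protein-coding starts, the counts were 4 of 20 hosts (20%) against 9.47%. With so few hosts and no interval, no preference for hosts of like start number is read from this. Besides the hosts of mir-279/mir-996, mir-14, mir-8 and mir-282, the 8 include 4 whose summit lay beyond 2000 bp from the hairpin. These summits lay within 500 bp of an annotated start, not always the outermost, of lncRNA:CR43314 (mir-bft, also called mir-263a; signal 125), lncRNA:CR43459 (mir-277/mir-34; 91.8), lncRNA:CR44206 (mir-184; 108) and lncRNA:CR46006 (mir-276a; 98.7). In regions with hairpins in a noncoding transcript on their own strand, 9 of 29 held a summit away from starts, against 13 of 87 in protein-coding introns, 3 of 36 in protein-coding exons and 4 of 33 with no host. Among the 42 summits, 7 were within 500 bp of a noncoding start, all 7 upstream of the hairpin (16.7%; interval 8.32 to 30.6%). Of the 4707 other summits away from starts, 5.06% were. The 7 include summits at mir-2496 and mir-281-1 near noncoding transcripts that are not hosts, and both overlapping peaks of mir-8.

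**Figure D3:**
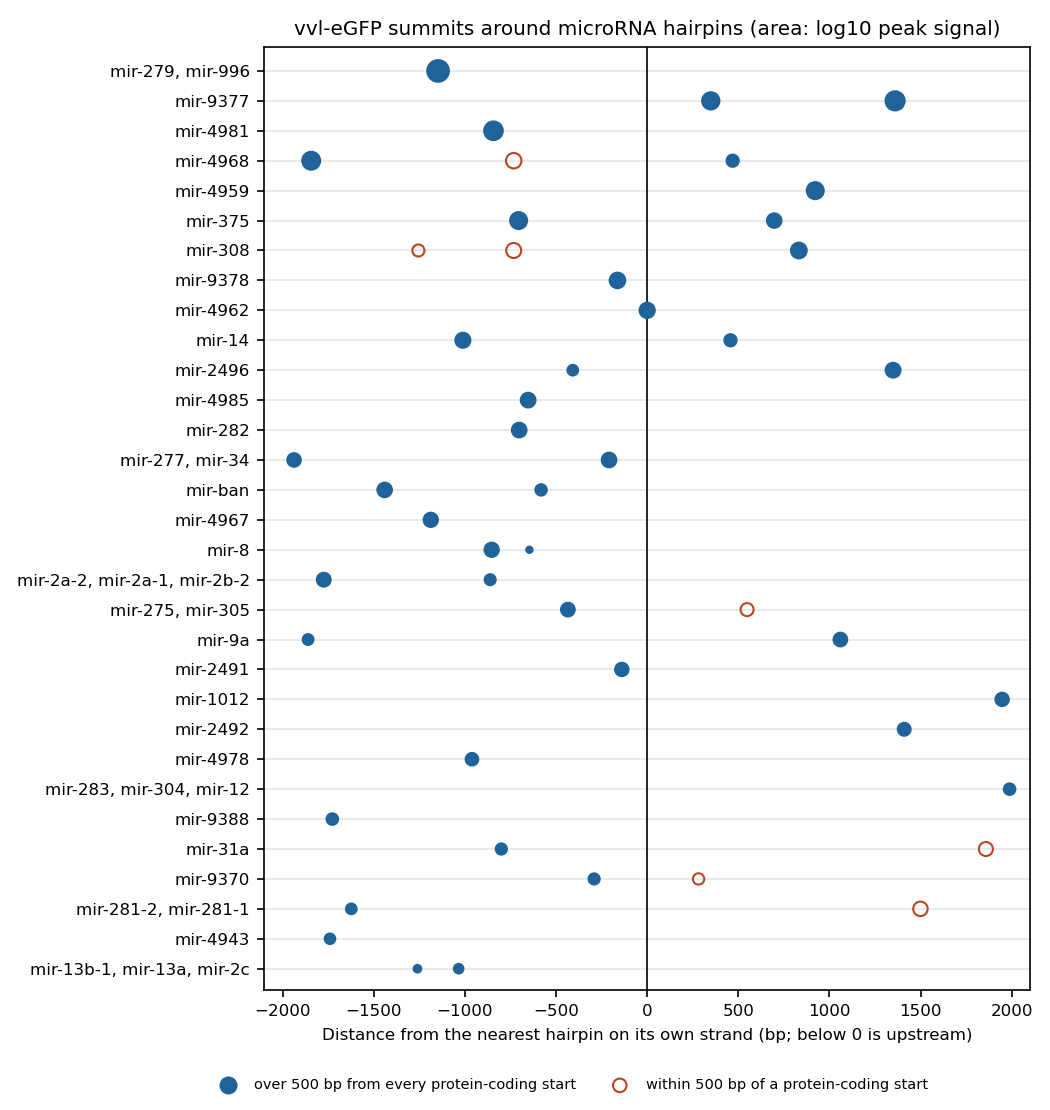
Conservative summits in the 31 regions that hold one away from protein-coding starts, by distance (bp, x axis, upstream below 0) from the nearest hairpin on its strand, with regions ordered downward by their highest signal away from starts. Filled circles lie over 500 bp from every protein-coding start and open circles within 500 bp of one, and larger circles have a higher peak signal. Most filled circles lie left of 0, 29 of 42, and the largest is the one 1147 bp upstream of mir-279.

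In other loci known for their roles in growth and survival, the summits lay within the primary transcript. bantam (mir-ban) is a growth microRNA that blocks cell death by repressing hid. It had 2 upstream summits in an exon of lncRNA:CR43334. One was 1440 bp from the hairpin, with a signal of 191 (102 in replicate 1 and 97.4 in replicate 2), and one 582 bp from it, with a signal of 92.2 (67.2 and 33.5). The first is in the list of both replicates and the second in that of neither.

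The mir-2 and mir-13 microRNAs are known to target the cell death genes reaper, hid and grim through the seed AUCACAG, which 14 hairpins in 7 regions share. Of these 7 regions 3 held a summit, each with at least 1 away from starts. The mir-2a/2b cluster, in an intron of spi, which encodes an epidermal growth factor receptor ligand, had 2 upstream summits with signals of 160 (109 and 72.2 in replicates 1 and 2) and 85.8 (55.2 and 32.1). The mir-13b-1/13a/2c cluster had 2 weak ones, with signals of 66.1 and 49.1. Neither was in the list of a replicate, and the region had no summit in the broader list. The third was mir-308, which is one of 2 regions with 3 summits (signals of 263, 216 and 106), 2 of them at the start of its host RpS23. No summit was present at the remaining 4 regions, those of mir-2b-1, mir-11, mir-13b-2 and the mir-309 cluster, in the conservative or the broader list. Of the whole growth and survival list, 5 of 9 regions held a summit (mir-14, mir-8, bantam and these mir-2 and mir-13 clusters), all 5 with one away from starts, beside 50 of 206 (24.3%) and 31 of 206 (15.0%) of all microRNA regions. mir-278, also of this list, had none in either list.

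Loci known from metabolism made up a list of 4 regions, of which 3 held a summit away from starts, beside 31 of all 206 (15.0%). In the cluster of mir-277, a regulator of branched-chain amino acid breakdown, and mir-34, known from ageing and neural upkeep, a peak with a signal of 192 (101 in replicate 1 and 90.6 in replicate 2) lay between the hairpins, 209 bp upstream of mir-34. A further peak with a signal of 149 (77.4 and 76.5 in replicates 1 and 2) lay 1937 bp upstream of mir-277. mir-375, whose mammalian counterpart is known from pancreatic islet cells, had 1 summit on each side, with signals of 373 (196 and 173 in replicates 1 and 2) at 705 bp upstream and 187 (117 and 71.7) at 697 bp downstream. These 4 peaks were in the lists of both replicates. In the mir-275/305 cluster a peak 435 bp upstream had a signal of 154 (52.4 and 97.2) and was in the list of replicate 2 only, and a second, with a signal of 133, was at the start of muc. No summit was present at mir-33, in an intron of SREBP.

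In the nervous system and sense organ list 4 of 14 regions held a summit, at mir-279/mir-996, mir-277/mir-34, mir-9a and mir-92a, a share near the 24.3% of all 206 regions. mir-9a, known for holding back the proneural factor senseless, had 2 summits in lncRNA:CR45916, its host. The one 1060 bp downstream had a signal of 154 (88.6 in replicate 1 and 70.1 in replicate 2) and was the only one of the 42 with the octamer within 100 bp. The one 1860 bp upstream had a signal of 82.5 and had a matching summit in the ranked list of replicate 2 alone. At mir-92a both summits (signals of 328 and 127) were at starts of its host jigr1. mir-124, a microRNA of the central nervous system, and mir-7, which acts in photoreceptors, had no summit in the conservative or the broader list, and the same held for mir-137, mir-184, mir-210, mir-252 and mir-263b. mir-bft, mir-92b and mir-276a, the last 3 of the list, had a summit in the broader list but not in the conservative one. The mir-276a region also had a summit in each replicate's own list.

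Several well known loci had none within 2000 bp, as had 156 of the 206 regions, and lists of so few regions cannot be set apart from the 24.3% of all regions that held one. The heterochronic cluster of mir-100, mir-let7 and mir-125, which times the change to the adult, had no summit in either list, and its region held no peak in the ranked list of either replicate. Of its hairpins, mir-125 lay closest to a conservative summit, at 5156 bp. The 8 hairpins of the mir-309 cluster, known for clearing maternal messages, had none in either list. mir-10 and the mir-iab-4/8 locus, both in the Hox complexes, had none in the conservative list, and neither had the muscle microRNAs mir-1 and mir-133. The broader list placed 2 summits at mir-iab-4/8 and 1 at mir-1. Of the 7 regions of testis-biased clusters 0 held a conservative summit, and 1 of the 7, the mir-310 cluster, had broader ones. In the list of segmentation and wing microRNAs, 1 of 4 regions, mir-31a, had summits, with signals of 166 at the start of fab1 and 89.0 away from starts. The other 3 (mir-31b, mir-315 and the cluster of mir-9b, mir-9c, mir-79 and mir-306) had none in either list. In all, 17 of the 156 regions without a conservative summit had one in the broader list, mir-317 among them.

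The remaining high signals lay mostly at hairpins with less known roles, often in introns of protein-coding hosts. mir-9377, in an intron of Tis11, which encodes a protein that destabilises messenger RNAs, had 2 downstream summits. Their signals were 739 (427 in replicate 1 and 305 in replicate 2) at 1360 bp and 408 (190.5 and 211) at 349 bp, ranks 204 and 665 of 8309. mir-4981 had a signal of 637 (268 and 362) at 843 bp upstream, 651 bp from the start of CG14762. mir-4968 lies in an intron of Mob2, whose product is a cofactor of NDR-type kinases. It had 3 summits with signals of 503, 243 and 110.4. The second is at a Mob2 start, and the third was in the list of neither replicate.

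mir-4959 had a signal of 378 (209 and 170.3) at 922 bp downstream, in sequence between genes. mir-9378, in an intron of CG17124, had a signal of 249 (114 and 158) at 163 bp upstream. mir-4962 lies in an intron of Tlk, the Tousled-like kinase gene, and was the only hairpin with a summit inside it, with a signal of 228 (146 and 78.1). The CUCUCUC that runs through its 5p strand, shown above, is the other strand of GAGAGAG, and the summit window holds that word at 2 places. mir-2496 had 2 summits, of which one, with a signal of 79.8, lay 408 bp upstream of the hairpin and 65 bp from the start of lncRNA:CR45478, and the other, with a signal of 205, 1349 bp downstream. mir-2491 had one at 139 bp upstream (signal 143) and mir-9370 one at 291 bp upstream (signal 87.5). The latter lay 641 bp from the start of FucT6 and was in the list of neither replicate. Over all 260 hairpins, 17 (6.54%) had a summit within 500 bp, starts included, and 38 (14.6%) within 1000 bp. Tiles of 2 kb, near in length to the wider window, held a summit in 10.6%. No background was counted for the narrower window. Neither count was split by protein-coding starts, so no closeness to hairpins is read from them.

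Peak signals away from starts had a median of 154 in the microRNA regions (42 summits, range 41.8 to 1833), against 137 at the 4707 other summits away from starts. At starts the median was 120 in the regions (27 summits, range 86.2 to 328), against 148 at the 3533 other summits at starts. The quartiles of the 42 were 93.0 and 214, and those of the 4707 were 102 and 207, so both groups covered much the same range. Of the 69 peaks, 41 (59.4%) overlapped, by 1 bp or more, a listed peak of each replicate, against 62.4% of all 8309. Another 10 of the 69, 7 of them away from starts, were in the list of neither replicate. Of the 8240 peaks outside the regions, 6723 were in the list of replicate 1, 6050 in that of replicate 2 and 5141 in both. By these counts, a smaller share of the 8240 than of the 69 was in neither list. The list of replicate 1 held 52 of the 69 (75.4%), against 81.6% of the 8240 others. That of replicate 2 held 48 (69.6%), against 73.4%. A summit within 100 bp in both ranked lists was found for 58 of the 69, and in 47 of these replicate 1 had the higher signal. This is not particular to microRNA regions. At summits outside them the medians were 87.2 in replicate 1 and 55.7 in replicate 2 away from starts, and 89.6 and 67.8 at starts. Of the 50 regions with a summit, 36 had one in each replicate's own list.

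**Figure D4:**
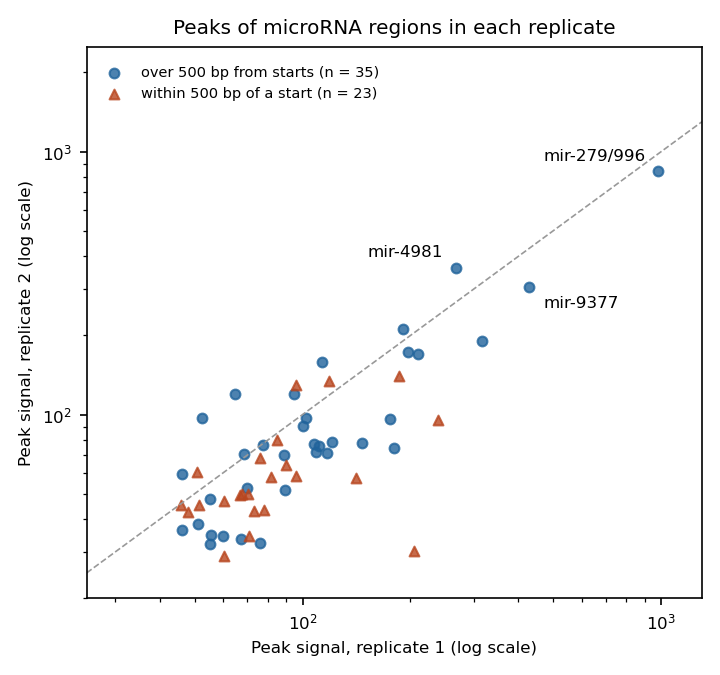
Peak signal in replicate 1 (x axis) and replicate 2 (y axis), both on log scales, for the 58 peaks of microRNA regions with a summit within 100 bp in both ranked lists: circles are over 500 bp from protein-coding starts (35) and triangles within 500 bp of one (23), and the dashed line marks equal signal. The mir-279/mir-996 peak stands at the upper end in both replicates, at 979 and 842, and 47 points lie below the line.

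The octamer ATGCAAAT, sought on both strands within 100 bp of the summit, was present at 3 of the 69 summits (4.35%), against 6.70% of the 8240 others. The share was 3.77% in the broader list, 5% with replicate 2 alone, 7.59% with replicate 1 alone and 1.45% in a 50 bp window. It was 8.82% both at a −log10 IDR of 3 or more and at signals at or over the median. The share of the other summits was not counted at these settings. With so wide a range, no lower share than elsewhere is read from the 69 summits. Away from starts the octamer was present at 1 of 42 (2.38%; interval 0.422 to 12.3%), against 8.84% of 4707, which lies inside the interval. At starts it was present at 2 of 27 (7.41%), against 3.85% of 3533. The variants ATGCTAAT and ATGCATAT were present at 0 of 69, which allows a share of up to 5.27% (Wilson), against 2.66% and 2.58% of the others. TAATTA, the core of homeodomain sites, was present at 8 of 69 (11.6%), against 15.6%. These shares could not be set apart from those of the other summits at this number of peaks. At starts, TATCGATA, the word bound by the factor DREF, was present at 6 of 27 (22.2%; interval 10.6 to 40.8%), against 8.21% of 3533. GGTCACAC, a core promoter word, was present at 3 of these 27 (11.1%), against 6.4%. Away from starts TATCGATA and GGTCACAC were each present at 0 of 42, against 0.425% and 0.467% of 4707. GAGAGAG, a word bound by the GAGA factor, was present away from starts at 5 of 42 (11.9%; interval 5.19 to 25%), against 5.46% of 4707. At starts it was present at 2 of 27 (7.41%), against 6.59% of 3533. A match is only a run of letters, and 7 words were counted, each over all summits, away from starts and at starts.

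The protein-coding genes that carry hairpins in an intron or exon on the same strand had summits at their own starts more often than protein-coding genes at large. Of 128 such hosts 60 (46.9%) had a summit within 500 bp of a start, against 28.7% of all 13945. Hosts have more starts, with a median of 2 per gene against 1. Among hosts with 1 start 18 of 56 (32.1%) had a summit, against 22.7%, and among hosts with more starts 42 of 72 (58.3%), against 45.3%. The difference was thus smaller within genes of like start number. Host length and expression were not tested.

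The genes that make and load small RNAs were counted from a list of 14. A summit within 500 bp of a start was present at 8 of the 14, against 28.7% of all protein-coding genes. That share was 22.7% for genes with 1 start and 45.3% for genes with more, and the 14 were not matched for start number. At a −log10 IDR of 3 or more, 4 of the 14 had a summit, as at signals at or over the median. No preference for these genes is read from the count. The names that follow are those of the 8. In the microRNA branch the 8 included drosha and pasha, which encode the nuclear hairpin-cutting pair, and Ranbp21, the hairpin exporter. They also included AGO1, the microRNA Argonaute, and gw, its silencing partner. Their signals were 106, 163, 122, 219 and 217. In the branch of small interfering RNAs they were AGO2 (94.1) and r2d2 (230, where the signals were 114 in replicate 1 and 113 in replicate 2), and Nbr (59.0), which trims microRNA ends, was the last. No summit was present at a start of Dcr-1, loqs, Ars2, Dcr-2, Hen1 or Tailor. These signals, the highest per gene, ran from 59.0 to 230, all below that of mir-279/mir-996.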

How the data were processed

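The deposited peak lists use dm6 coordinates, per the labels, and rest on the alignments of 1 replicate or of both, per the text files beside them. No aligner, peak caller or version is given in the sources used here. The authors gave each peak a signal, a score, a summit offset and, in the ranked lists, a −log10 of the IDR. Of 8493 ranked peaks that pass the threshold, 184 are not in the thresholded list and were not used. Depth per sample is unknown.

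Hairpins, hosts, starts and mature strands came from Ensembl release 115 and sequence from Release 6. Summits, at column 2 plus the offset, were counted in regions and in consecutive tiles with Python 3.11.15, pandas 2.3.3, numpy 2.4.6 and scipy 1.17.1, and plotted with matplotlib 3.10.9. The count was tested on simulated summits placed at known regions. Signals per replicate come from the closest summit, at most 100 bp off, in the ranked list of each replicate. Samples form 1 group, so no test between groups was run. Intervals are 95% Wilson intervals and cover counting error over peaks or regions only. Named were the 10 regions with the highest signal away from starts, the 10 with the most summits, the regions of the role lists (those of testis-biased clusters mostly as a count), and hairpins within 500 bp of a summit away from starts. The members, lists and words were chosen with earlier results of these data known. Alternatives were the broader list, each replicate alone, stricter thresholds, other flanks, tiles, windows and starts. Counts of hosts and of density by distance were added after the data were seen.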

Additional observations from a re-analysis of the deposited data

How the results depend on the processing

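With the broader list, summits in microRNA regions numbered 106, of which 64 were away from protein-coding starts, and 24.2% of tiles held a summit. At a −log10 IDR of 3 or more, 30 regions held 34 summits, 24 of them away from starts, 8 hairpins had one within 500 bp, 4 of the processing genes had one at a start, and 10.8% of tiles held one. With signals at or over the median, 29 regions held 34 summits, 25 of them away from starts, with 9 hairpins, 4 processing genes and 11.1% of tiles. Flanks of 1 kb gave 41 summits, 23 away from starts. Flanks of 5 kb gave 167 summits in 97 regions (89 away, in 56), and flanks of 10 kb gave 369 in 139 (202 away, in 91). With starts of all transcripts in place of protein-coding ones, 9 of the 75 regions without a start held a summit. In a 50 bp window the octamer share was 1.45%. Within 250 bp, 7 hairpins had a summit, and within 1000 bp, 38. Tiles of 2 kb held a summit in 10.6% and tiles of 10 kb in 34.5%. With 1 replicate left out, the tile share ranged from 16.8 to 19.8%. Of the other 61 values, counts of regions, summits, hairpins and genes stayed within 1.5 times the reported count and shares within its 95% interval. These include octamer shares of 3.77% in the broader list, 5 to 7.59% with 1 replicate left out, and 8.82% under each stricter threshold. Counts were compared without their totals, which change between settings. At a −log10 IDR of 3 or more, 33 of 34 peaks were found in both replicates, and at signals at or over the median 31 of 34, against 41 of 69. Regions without a protein-coding start that held a summit were 14 of 60 with 5 kb flanks and 13 of 32 with 10 kb flanks, against 15 of 100. Most changes follow from taking fewer or more peaks or bases. No paired analysis was possible because there is 1 group only.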

Other observations

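microRNA genes numbered under 1000 or named without a number were set beside those numbered 1000 and above, a split chosen after values were seen. A summit was present at 21 of 88 regions of the first kind and 29 of 118 of the second, and one away from protein-coding starts at 15 of 88 and 16 of 118. Per Mb of sequence away from starts the regions held 67.7 and 48.1 summits. In the 2 kb upstream the densities were 113 and 61.0 per Mb, and in the 2 kb downstream 33.2 and 34.3 per Mb. Of the 184 passing ranked peaks that were not used, 7 lie in 5 of the 206 regions, and none of these 5 has a conservative summit.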
